A study of Mus musculus with 5 samples.

Results

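The genes described here are those of the calcineurin pathway, comprising the RCAN inhibitors (Rcan1, Rcan2, Rcan3), the calcineurin subunits (Ppp3ca, Ppp3cb, Ppp3r1) and the NFAT transcription factors (Nfatc1, Nfatc2, Nfatc3, Nfatc4). They were chosen by gene symbol and make up 10 of the 55385 genes in the count tables. Total RNA of the hippocampus was sequenced from male C57/bl6 mice aged 3 months. The control library came from an untreated mouse hippocampus (0 h), and the other 4 libraries from mice that received kainic acid, a glutamate receptor agonist that provokes seizures, by intraperitoneal injection at 20 mg/kg in PBS. Hippocampi were taken 1 h, 4 h or 8 h after the onset of seizures, with 2 libraries at 4 h and 1 library in every other group. No vehicle-treated library was among the 5 libraries, so that injection and kainic acid cannot be told apart, and the sources do not state that each library was made from 1 mouse.

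Calcineurin is a protein phosphatase that is switched on by calcium and calmodulin and is abundant in neurons. A catalytic A subunit pairs with a regulatory, calcium-binding B subunit. Active calcineurin removes phosphates from the cytoplasmic NFAT factors, which then enter the nucleus, and RCAN proteins bind calcineurin and can inhibit it. Rcan1 is itself a known NFAT target gene through a promoter inside the gene, so that the pathway contains a feedback loop.

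Rcan1 (ENSMUSG00000022951.16) lies on the minus strand of chr16:92391953-92470867 (GRCm38) and has 7 annotated transcripts. The transcript Rcan1-202 starts with an exon at chr16:92465833-92466146, and Rcan1-201 starts inside the gene with an exon at chr16:92399896-92400077. Both starts have a promoter window in the RefSeq table (GRCm38.p6), each running from 250 bases before the RefSeq start to 50 bases after it. The RefSeq start lies 23 bases upstream of the start of Rcan1-202 and 1 base upstream of that of Rcan1-201, so that 27 and 49 bases of the windows fall into the respective first exon. These windows are shown because the inducible transcript of Rcan1 is known to start at the internal promoter. Both strands were searched for the core of NFAT sites, GGAAA. They were also searched for an extended core that contains this motif and ends in another A, for the AP-1 site, written TGANTCA, and for the palindromic cyclic AMP response element (CRE), whose letters are TGACGTCA. The motifs were chosen after the sequences had been seen. Capitals mark the matches, and both windows are given 5′ to 3′ on the minus strand, the upstream one at chr16:92466120-92466419 and the internal one at chr16:92400029-92400328.
Rcan1 upstream promoter: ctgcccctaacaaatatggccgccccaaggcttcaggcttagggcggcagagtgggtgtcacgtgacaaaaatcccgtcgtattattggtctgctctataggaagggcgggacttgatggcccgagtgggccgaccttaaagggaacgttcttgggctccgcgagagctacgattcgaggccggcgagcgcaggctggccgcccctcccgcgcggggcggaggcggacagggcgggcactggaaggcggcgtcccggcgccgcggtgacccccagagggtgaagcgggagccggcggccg
Rcan1 internal promoter: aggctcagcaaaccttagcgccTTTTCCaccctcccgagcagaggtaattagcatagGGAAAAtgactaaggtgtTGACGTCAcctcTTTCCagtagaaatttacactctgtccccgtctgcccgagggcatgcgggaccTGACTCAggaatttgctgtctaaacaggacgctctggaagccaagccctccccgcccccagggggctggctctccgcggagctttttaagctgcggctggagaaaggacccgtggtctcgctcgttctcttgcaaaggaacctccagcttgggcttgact

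The internal window held 3 matches to the NFAT core, 2 of them extended (GGAAAA), together with 1 AP-1 and 1 CRE match. With the RefSeq start at 0, the leftmost bases of the NFAT core matches were at -227, -193 and -163, that of the CRE match at -175 and that of the AP-1 match at -110. None of these motifs occurred in the upstream window. Among all 32851 promoter windows of 300 bases, 61.3% held the NFAT core at least once and 9.42% at least 3 times, 23.4% held the extended core and 3.62% held it at least 2 times. The AP-1 site was found in 7.81% and the CRE in 1.79% of the windows. The NFAT core, the AP-1 site and the CRE occurred together in 14 windows (0.0426%), the internal Rcan1 window being among them. As the motifs were chosen after this window had been seen, this share is not a test of the window. Of the 10 genes, 8 had a window in the table (13 windows in all), whereas Ppp3ca and Nfatc1 had none. Ppp3cb held 4 NFAT core matches, and Nfatc4 and 1 of the 2 Nfatc2 windows held 3, all without the CRE or AP-1 motif. The AP-1 motif was also found in 1 of the 3 Rcan2 windows. A match describes the letters of a window and does not show that a factor binds there.

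Sequencing depth was similar between libraries. The gene counts of a library summed to 19100374 (control), 17744508 (1 h), 18250114 and 19109204 (libraries 1 and 2 at 4 h) and 16612225 (8 h). Levels are given as normalized CPM, that is counts scaled to a common library total with TMM factors for composition, and a ratio is the normalized CPM of a library over that of the control. Intervals are exact 95% intervals that cover counting error only. Genes were counted as higher or lower at a time point when the ratio was 1.5-fold or more, at 4 h in both libraries. All 10 genes passed the filter on low counts, as did 19768 genes in total.

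Among the RCAN inhibitors, Rcan1 showed the widest range of levels. Its normalized CPM was 39.2 in the control (781 counts), 74.7 at 1 h (1313 counts), 116 and 67.6 in libraries 1 and 2 at 4 h (1959 and 1278 counts) and 49.7 at 8 h (872 counts). All 4 kainic acid libraries were above the control. The ratio to the control was 1.90 at 1 h (interval 1.74 to 2.08) and 1.27 at 8 h (1.15 to 1.40). At 4 h it was 2.96 in library 1 (2.73 to 3.23) and 1.72 in library 2 (1.57 to 1.89). The 2 libraries at 4 h differed from each other by 1.72-fold, and the 1 h value lay between them. For comparison, the median absolute log2 difference between these libraries was 0.27 over all genes tested, against 0.78 for Rcan1.

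In the model fitted to all 5 libraries, Rcan1 had log2 fold changes of 0.93 (SE 0.39), 1.23 (SE 0.36) and 0.34 (SE 0.39) at 1, 4 and 8 h. In edgeR's quasi-likelihood test the adjusted p (Benjamini-Hochberg) was 1, 0.352 and 1.00, so that Rcan1 did not pass the threshold of 0.05 at any time point. At 4 h, 5.44% of the genes tested had a higher log2 fold change than Rcan1, and at 1 h 4.79%. The difference of 8 h minus 4 h was -0.88 (SE 0.35), with an unadjusted p of 0.0485 and an adjusted p of 0.570 by edgeR's quasi-likelihood test and Benjamini-Hochberg adjustment. Without library 1 the log2 fold change at 4 h was 0.78, and without library 2 it was 1.57. With no filter on low counts, the adjusted p of Rcan1 was 0.0343 at 1 h and 1.65e-05 at 4 h (edgeR's quasi-likelihood test, Benjamini-Hochberg adjusted). Over the settings tried, with edgeR's quasi-likelihood test or another tool and Benjamini-Hochberg adjustment, the range of the adjusted p was 0.0343 to 1 for 1 h and 1.65e-05 to 1.00 for 4 h. Only the pair at 4 h informs the spread in this model, the single libraries being assumed to vary like it, and p-values measure the spread between these samples, which may be technical.

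Rcan2, a paralog that is also abundant in brain, had a normalized CPM of 103 in the control, 121 at 1 h, 159 and 139 in libraries 1 and 2 at 4 h, and 120.1 at 8 h. It was above the control in all 4 kainic acid libraries, with ratios of 1.17, 1.53, 1.34 and 1.16. The ratio passed 1.5-fold in library 1 at 4 h but not in library 2, and Rcan2 was therefore not counted as higher. Its fitted log2 fold change at 4 h was 0.52 (SE 0.18), with an unadjusted p of 0.0291 and an adjusted p of 0.388 by edgeR's quasi-likelihood test and Benjamini-Hochberg adjustment.

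Rcan3, the third paralog, had the opposite direction. Its normalized CPM was 28.9 in the control, 25.3 at 1 h, 20.8 and 23.7 in the pair at 4 h, and 20.8 at 8 h. All kainic acid libraries were below the control, the ratios being 0.874 (0.771 to 0.991), 0.720 (0.628 to 0.823), 0.820 (0.723 to 0.929) and 0.721 (0.630 to 0.823). The directions of Rcan1, Rcan2 and Rcan3 in each library were the same with median-of-ratios factors and with library size alone. None of the Rcan3 ratios passed 1.5-fold with TMM factors, whereas library 1 at 4 h did so with library size alone (0.637), and its log2 fold changes were -0.19 (SE 0.27), -0.38 (SE 0.23) and -0.47 (SE 0.27) at 1, 4 and 8 h. In bulk tissue, fewer cells that express a gene and less RNA per cell cannot be told apart.

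**Figure D1:**
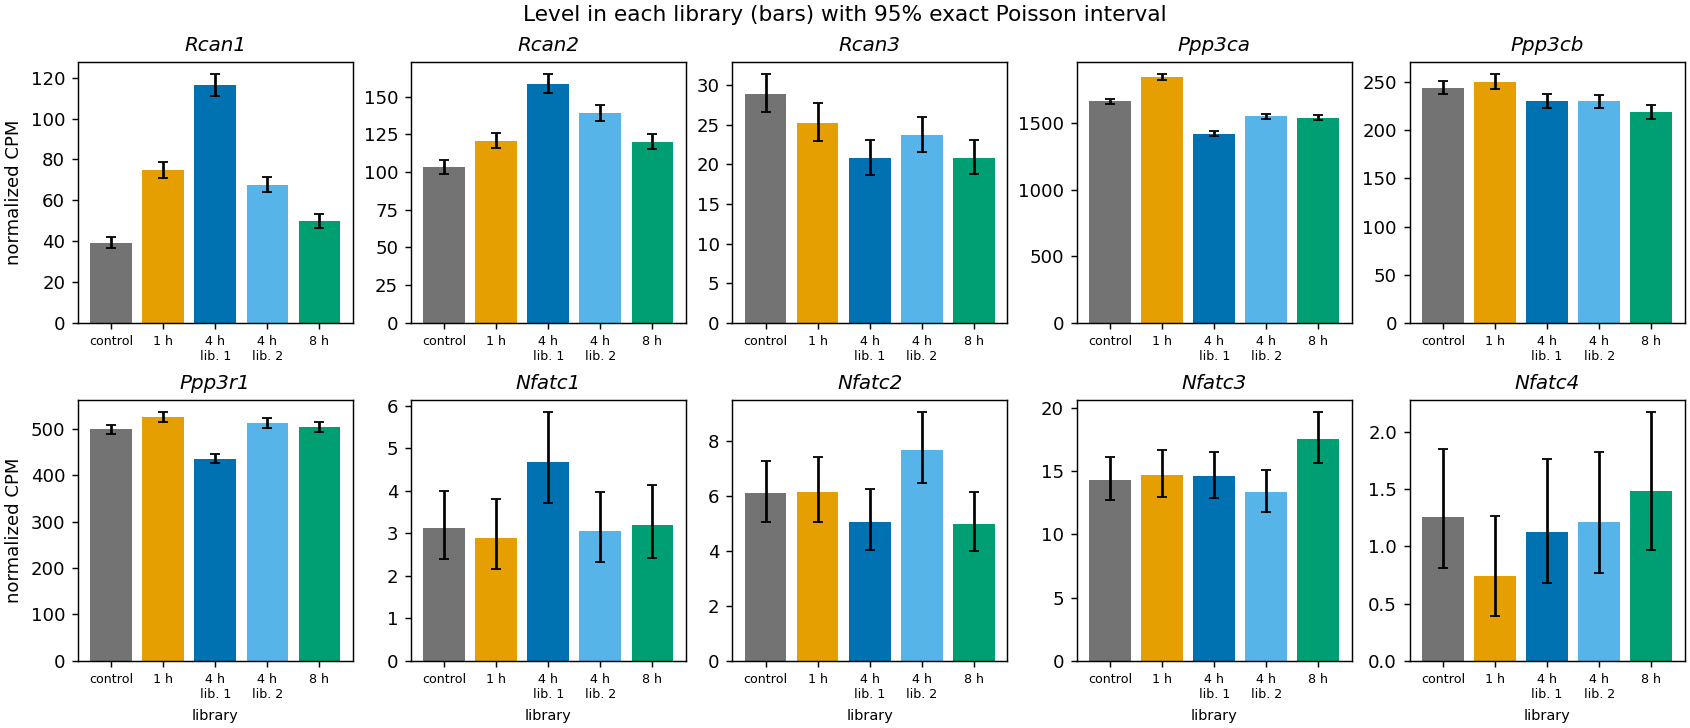
Level of each of the 10 genes in each of the 5 libraries in normalized CPM (y axes start at 0 and differ between panels); bars are single libraries and error bars are exact 95% Poisson intervals. Rcan1 is lowest in the control at 39.2 and highest in library 1 at 4 h at 116.

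**Figure D2:**
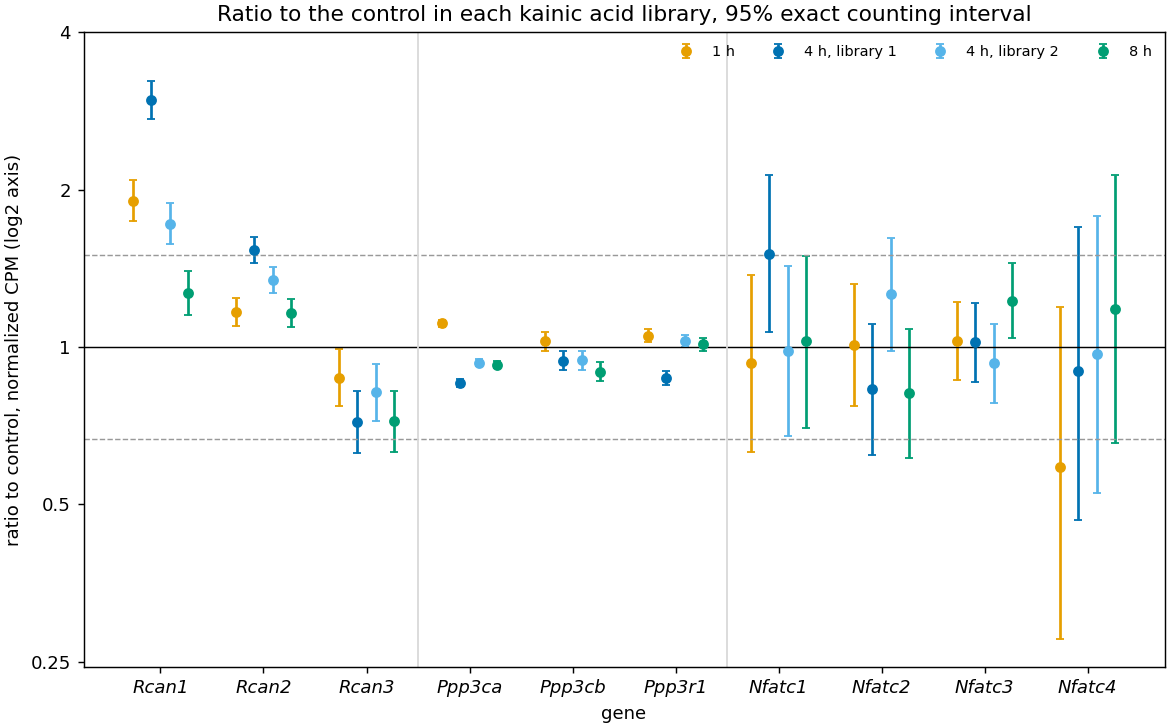
Ratio of normalized CPM to the control on a log2 axis for each gene in the 4 kainic acid libraries, with exact 95% counting intervals; dashed lines mark 1.5-fold higher and lower. Rcan1 lies above 1.5-fold at 1 h and in both libraries at 4 h, and the calcineurin subunits lie between 0.854 and 1.11.

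Per kilobase of exon, Rcan2 was the most abundant RCAN transcript in the control, with a normalized CPM per kilobase of 23.7 against 12.7 for Rcan1 and 5.65 for Rcan3. The level of Rcan1 per kilobase was 24.2 at 1 h, 37.7 and 21.9 in the 4 h libraries and 16.1 at 8 h. The share of Rcan1 in the summed RCAN level was 30.3% in the control, 42.7% at 1 h, 48.3% and 37.6% in libraries 1 and 2 at 4 h, and 33.8% at 8 h. Rcan1 exceeded Rcan2 only in library 1 at 4 h, where the ratio of Rcan2 to Rcan1 was 0.961. The share of Rcan3 was highest in the control (13.5%) and lowest in library 1 at 4 h (5.21%). Counts per gene pool all transcripts of Rcan1. Of its 3085 exonic bases, 2008 are shared by Rcan1-201 and Rcan1-202 and only 99 belong to Rcan1-201 alone, so that transcripts from the upstream and the internal promoter were not separated.

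**Figure D3:**
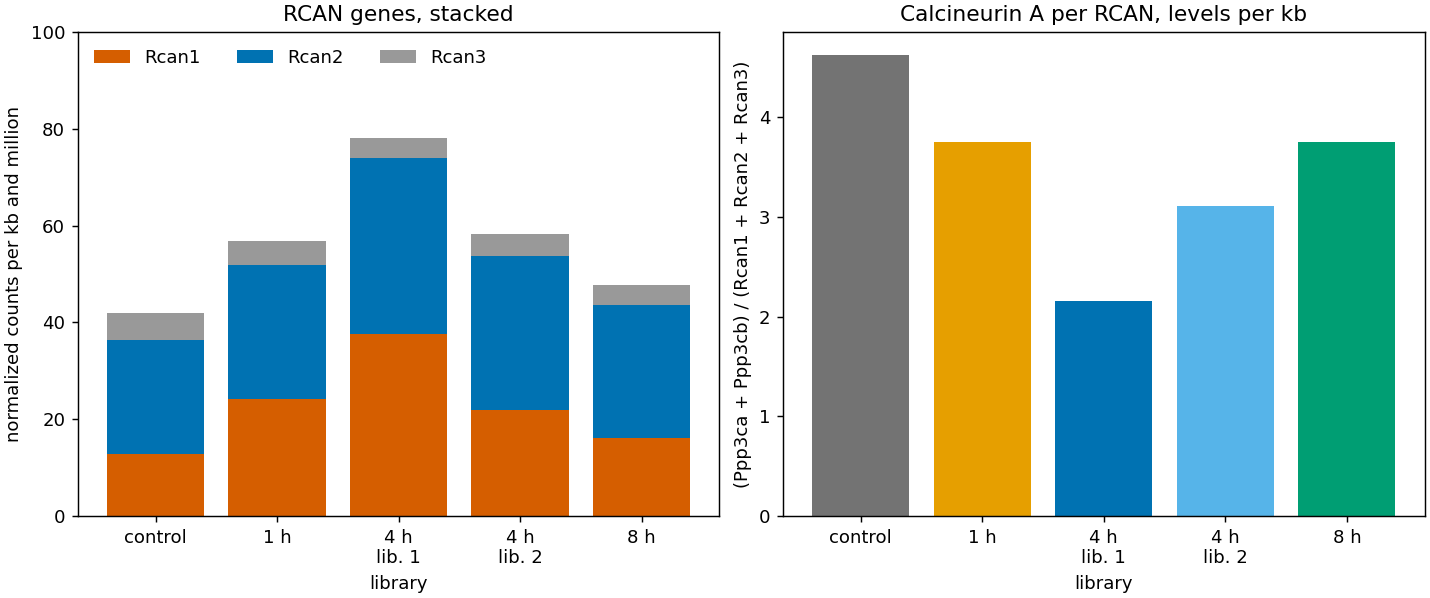
Left, levels of Rcan1, Rcan2 and Rcan3 as normalized CPM per kilobase of exon, stacked for each library; right, the summed level of Ppp3ca and Ppp3cb over the summed level of the RCAN genes per kilobase. Bars are single libraries without error bars. The ratio is 4.62 in the control and 2.16 in library 1 at 4 h.

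The calcineurin subunits differed little between libraries. Ppp3ca (ENSMUSG00000028161.17, chr3:136670124-136937727, plus strand), the catalytic A-alpha subunit and the main form in brain, had a normalized CPM of 1662 in the control, 1844 at 1 h, 1419 and 1552 in libraries 1 and 2 at 4 h, and 1539 at 8 h. It was above the control at 1 h (ratio 1.11, 1.09 to 1.13) and below it in both libraries at 4 h (0.854 and 0.934) and at 8 h (0.926). The log2 fold changes were 0.15 (SE 0.19), -0.16 (SE 0.17) and -0.11 (SE 0.19), all within 1 standard error of 0.

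Ppp3cb, the catalytic A-beta subunit, had a normalized CPM of 244 in the control, 251 at 1 h, 229.96 and 230.2 in libraries 1 and 2 at 4 h, and 219 at 8 h. The libraries at 4 h agreed closely (ratios 0.942 and 0.943). The ratio was 0.897 at 8 h, and 1.03 at 1 h, where it was 0.975 with library size alone. Ppp3r1, the regulatory B subunit, had a normalized CPM of 499 in the control, 525 at 1 h, 436 and 513 in the pair at 4 h, and 505 at 8 h. Library 1 at 4 h was the lowest (ratio 0.873), and library 2 was close to the control (1.03, and 0.976 with library size alone), as was 1 h (1.05, and 0.9997 with library size alone). Exons of Ppp3r1 overlap those of Wdr92 on the same strand over 14.3% of their length, where reads cannot be assigned to either gene by position.

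Calcineurin A and RCAN transcripts were also compared as sums per kilobase, with Ppp3cc left out of the calcineurin A sum. The summed level of Ppp3ca and Ppp3cb per kilobase was 194 in the control, 213 at 1 h, 168 and 182 in the 4 h libraries, and 179 at 8 h. That of the RCAN genes was 42.0, 56.8, 78.0, 58.3 and 47.7 in the same order. Calcineurin A over RCAN was thus 4.62 in the control, 3.76 at 1 h, 2.16 and 3.11 in libraries 1 and 2 at 4 h, and 3.76 at 8 h, lowest in library 1 at 4 h and highest in the control. Ppp3ca made up between 84.5% and 86.7% of the summed level of Ppp3ca and Ppp3cb in the 5 libraries.

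The NFAT factors, which carry the calcineurin signal to the nucleus, were measured with few counts. Nfatc3 was the most abundant, with a normalized CPM of 14.3 in the control (285 counts), 14.7 at 1 h, 14.6 and 13.3 in the pair at 4 h, and 17.6 at 8 h (308 counts). Only the 8 h library lay outside counting error of the control (ratio 1.23, 1.04 to 1.45), and the ratio of 1.03 at 1 h and of 1.02 in library 1 at 4 h became 0.978 and 0.903 with library size alone. Its fitted log2 fold change there was 0.29 (SE 0.29). Exons of Nfatc3 overlap those of Esrp2 on the opposite strand over 1.87% of their length, and the strand setting of the counting is not given in the sources used here.

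Nfatc2 had 121 counts in the control, 108 at 1 h, 85 and 145 in libraries 1 and 2 at 4 h, and 87 at 8 h. Its 4 h libraries lay on either side of the control (ratios 0.830 and 1.26), and all 4 counting intervals included 1. Nfatc1 had 62 counts in the control, 51 at 1 h, 79 and 58 in the 4 h libraries, and 56 at 8 h. Here library 1 at 4 h stood apart with a ratio of 1.51 (1.07 to 2.14), whereas library 2 was at 0.985 (0.676 to 1.43). Nfatc4, the least abundant, had 25 counts in the control, 13 at 1 h, 19 and 23 in libraries 1 and 2 at 4 h, and 26 at 8 h. The ratio of 0.589 at 1 h had an interval of 0.277 to 1.20, so that a difference from the control was not detectable at this depth.

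Ordered by the median level per kilobase over the 5 libraries, Ppp3r1 (157) and Ppp3ca (155) came first, followed by Rcan2 (27.6), Ppp3cb (26.1) and Rcan1 (21.9). Rcan3 (4.64), Nfatc3 (1.25), Nfatc2 (0.575), Nfatc1 (0.417) and Nfatc4 (0.209) had lower levels. The ranges of Ppp3r1 (135 to 163) and Ppp3ca (142 to 185) overlapped, as did those of Rcan2, Ppp3cb and Rcan1 and those of Nfatc2 and Nfatc1. Rcan3, Nfatc3 and Nfatc4 did not overlap with their neighbours in this order. Rcan1 varied most between libraries, its highest level being 2.96 times its lowest, compared with 1.14 times for Ppp3cb and 2.01 times for Nfatc4, the latter with few counts.

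Counted over the 10 genes, 1 was 1.5-fold or more higher at 1 h (Rcan1), 1 at 4 h (Rcan1) and 0 at 8 h, against 10.9%, 10.1% and 14.1% of all genes tested. Nfatc4 alone was 1.5-fold or more lower at 1 h, and 0 genes were so at 4 h and 8 h, against 9.2%, 6.28% and 8.94% of all genes. At 1 h and 4 h the shares of higher genes among the 10 are near those of all genes. With library size alone the same genes of the 10 passed, and 1651 genes in total were higher and 1792 lower at 4 h, against 2000 and 1241 with TMM factors. With edgeR's quasi-likelihood test, 0 of the 10 genes passed an adjusted p of 0.05 at 1 h, 4 h or 8 h, where 0, 2 and 0 had an unadjusted p under 0.05. Among all genes 0%, 0.00506% and 0% passed, that is 0, 1 and 0 genes, with 478, 2291 and 892 genes at an unadjusted p under 0.05. The same libraries tested with DESeq2 gave 49, 233 and 32 calls and limma-voom gave 0, 0 and 0, and both called 0 of the 10 genes. The gene called at 4 h by edgeR's quasi-likelihood test was ETV3L, which is named because it was the only call of that test at 4 h. Between time points, 0.00506% of genes (1 gene, again ETV3L) passed for 4 h minus 1 h, and 0% for 8 h minus 4 h and for 8 h minus 1 h, with 1569, 1726 and 1164 genes at an unadjusted p under 0.05 in edgeR's quasi-likelihood test. DESeq2 and limma-voom were not run on the contrasts between time points. The median log2 fold change of the 10 genes was 0.04, -0.05 and 0.03 at 1, 4 and 8 h, and that of all genes tested -0.01, 0.01 and 0.01.

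**Figure D4:**
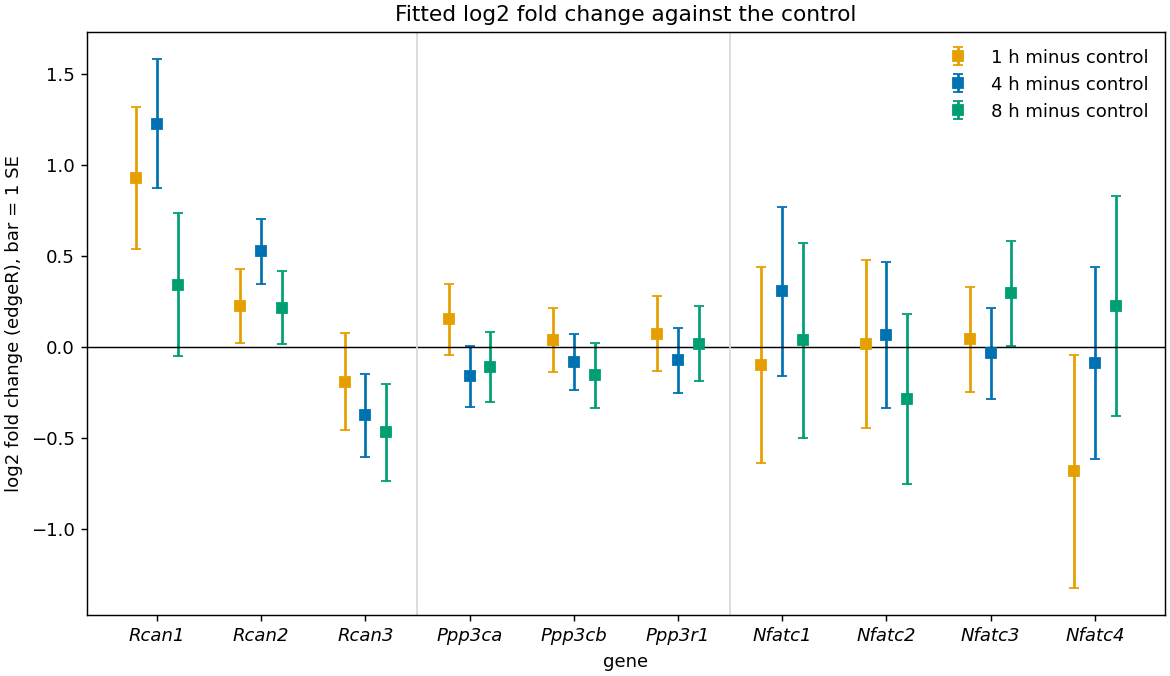
Fitted log2 fold change against the control for each gene at 1 h, 4 h and 8 h (y axis, log2 scale), with bars of 1 standard error. Rcan1 reaches 1.23 at 4 h, and the calcineurin subunits lie between -0.16 and 0.15.

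The genes most like Rcan1 in their ratios to the control were found by the Euclidean distance of the log2 ratios in the 4 kainic acid libraries, among 11832 genes with at least 100 counts in the control. They were Jmjd1c (distance 0.220), Rnft1 (0.268), Snu13 (0.272), Ndfip2 (0.277) and Arf4 (0.303). Jmjd1c, a histone demethylase family member, had 2934 counts in the control, 4840 at 1 h, 7356 and 5566 in libraries 1 and 2 at 4 h, and 3289 at 8 h. The likeness follows from the way the genes were chosen and describes these libraries only.

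The other lists of the pathway were examined in the same way. Of the 3 remaining subunit and NFAT genes (Ppp3cc, Ppp3r2, Nfat5), 1 was 1.5-fold or more higher at 1 h and at 8 h, in both cases Ppp3r2, a B subunit known from testis, with 11 counts in the control, 15 at 1 h, 11 and 8 in the pair at 4 h, and 24 at 8 h. Among all genes tested 10.9% and 14.1% were higher at these times, and with library size alone Ppp3r2 passed at 8 h only. Ppp3cc, the third catalytic subunit, had 406 counts in the control and ratios between 0.931 and 1.04. Nfat5, a related factor that does not depend on calcineurin, was at 1.61 in library 1 and 1.09 in library 2 at 4 h. With edgeR's quasi-likelihood test, 0 of these genes were called at any time point, and 0 had an unadjusted p under 0.05.

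Of 10 calcineurin partners (among them anchoring and inhibitor proteins and immunophilins), 1 was higher in both libraries at 4 h, a share like the 10.1% of all genes tested. This was Fkbp1a, which encodes FKBP12, the protein through which FK506 inhibits calcineurin, with 3343 counts in the control and ratios of 1.12 at 1 h, 1.54 and 1.56 in the 4 h libraries and 1.36 at 8 h. It did not pass with library size alone. Akap5, which anchors calcineurin at synapses, was lower at 8 h (2520 counts in the control and 1419 at 8 h, ratio 0.639). Chp2 was lower at 1 h with 5 counts against 13 in the control. No other partner of the 10 was lower at 8 h or 1 h, beside 8.94% and 9.2% of all genes tested.

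Among 9 NFAT kinases, which return NFAT to the cytoplasm, Dyrk3 and Dyrk1a were higher in both libraries at 4 h, beside 10.1% of all genes tested, and with library size alone only Dyrk3. Dyrk3 had 274 counts in the control, 301 at 1 h, 1240 and 1034 in libraries 1 and 2 at 4 h, and 381 at 8 h, that is ratios of 1.24, 5.35, 3.97 and 1.58. Its level at 4 h was thus well above that of every other library. Dyrk1a, whose human counterpart lies like RCAN1 on the chromosome that is trisomic in Down syndrome, had 2079 counts in the control and ratios of 1.07, 1.75, 1.51 and 1.11. Dyrk1b was the only kinase of the list 1.5-fold or more higher at 1 h (ratio 1.60), beside 10.9% of all genes tested. It was lower than the control in the other 3 kainic acid libraries. At 8 h only Dyrk3 was 1.5-fold or more higher, beside 14.1% of all genes tested. The glycogen synthase kinase genes Gsk3a and Gsk3b, which also phosphorylate NFAT, lay between 0.863 and 1.03.

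Of 14 calcineurin substrates, 0 were higher and 2 were lower in both libraries at 4 h, beside 10.1% and 6.28% of all genes tested. Crtc1, a CREB coactivator that enters the nucleus once dephosphorylated, had 1419 counts in the control and 1123 at 1 h, 677 and 866 in libraries 1 and 2 at 4 h and 1234 at 8 h (ratios 0.896, 0.564, 0.642 and 0.987). Elk1, a transcription factor of the ETS family, had ratios of 0.837, 0.576, 0.642 and 1.05. Both were close to the control again at 8 h. None of the substrates passed 1.5-fold at 1 h or 8 h. Of all genes tested, 10.9% and 14.1% were higher at these times, and 9.2% and 8.94% were lower.

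The reported NFAT target genes were the list with the largest ratios apart from the activity-induced genes. Of 13 genes 7 passed the filter on low counts, among them Tnf with 0 counts in the control. Of the other 6, 4 were 1.5-fold or more higher at 1 h, 5 at 4 h and 4 at 8 h, and 1 was lower at 8 h, beside 10.9%, 10.1% and 14.1% of all genes tested that were higher and 8.94% that were lower at 8 h. Several of these genes (Egr2, Egr3, Bdnf) are also known as activity-induced genes. Bdnf, a neurotrophin, had 868 counts in the control, 3663 at 1 h, 12693 and 5981 in the pair at 4 h, and 1695 at 8 h, the ratios being 4.78, 17.3, 7.25 and 2.22. Ptgs2, the inducible cyclooxygenase, had ratios of 19.1, 29.0, 10.6 and 2.53. Both were highest in library 1 at 4 h, as was Rcan1. Egr2, an immediate early transcription factor, was highest at 1 h (3726 counts against 48 in the control) and lower than the control at 8 h (21 counts), and Egr3 had ratios of 8.34, 4.17, 3.63 and 1.99. Named after their values were seen, Vegfa was at 2.25 and 2.03 at 4 h, and Tnf had 0 counts in the control and 5, 22, 2 and 8 counts in the other libraries. Itpr1, an intracellular calcium channel, lay between 0.880 and 1.10. The cytokine genes Ifng and Csf2 and the T cell gene Cd40lg had 0 counts in all 5 libraries. The floor of 3 counts corresponds to 0.151 normalized CPM in the control.

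**Figure D5:**
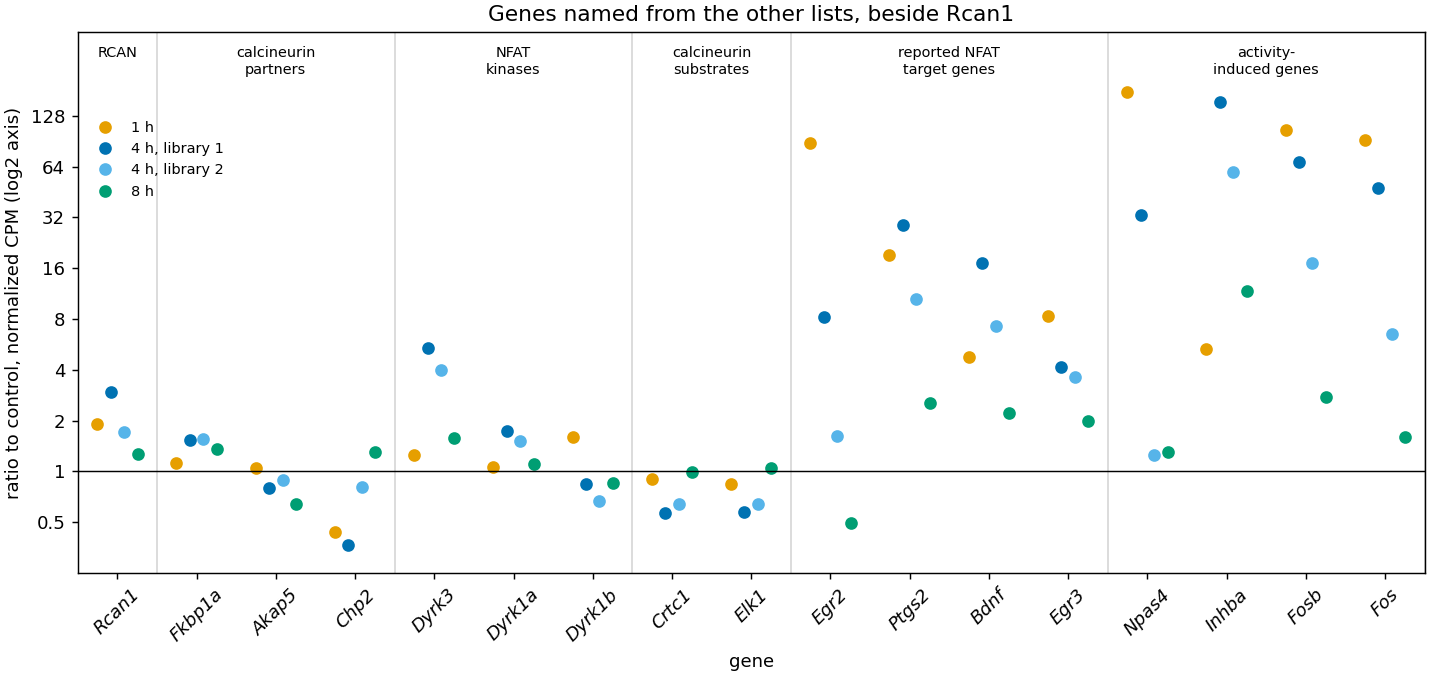
Ratio of normalized CPM to the control (log2 axis) in each kainic acid library for Rcan1 and for the genes named from the other lists; points are single libraries, without intervals. Dyrk3 lies at 5.35 and 3.97 at 4 h, and Crtc1 and Elk1 lie below 1 in both libraries at 4 h.

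With edgeR's quasi-likelihood test, 0 genes of the partner, kinase, substrate and target lists were called at 1 h, 4 h or 8 h. At an unadjusted p under 0.05 there were 0, 1 and 1 of the partners, 1, 3 and 0 of the kinases, 0, 2 and 0 of the substrates and 4, 4 and 2 of the targets at 1, 4 and 8 h, beside 2.42%, 11.6% and 4.51% of all genes tested. The median log2 fold change at 4 h was 0.07 for the partners, -0.08 for the kinases, -0.12 for the substrates and 2.10 for the 6 targets without Tnf, beside 0.01 for all genes.

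Genes induced by neuronal activity were listed for comparison. The list was chosen with earlier results of these data known, so that it is not an independent check of the labels. All 9 were 1.5-fold or more higher at 1 h, 5 were so at 4 h in both libraries and 3 at 8 h, where 2 others were lower, beside 10.9%, 10.1% and 14.1% of all genes tested that were higher and 8.94% that were lower at 8 h. Their summed normalized CPM was 479 in the control, 6835 at 1 h, 8711 and 2919 in libraries 1 and 2 at 4 h, and 628 at 8 h. Library 1 at 4 h was thus above library 2 in these genes as it was in Rcan1, Homer1 being the most abundant except at 1 h, when Arc was. Npas4, a neuronal transcription factor, had 78 counts in the control, 12204 at 1 h, 2189 and 93 in the 4 h libraries and 90 at 8 h. Inhba, the activin A subunit, was highest at 4 h with ratios of 154 and 59.2, and Fosb and Fos were highest at 1 h with 106 and 92.5. With edgeR's quasi-likelihood test 0 of the 9 were called at any time point, with 9, 5 and 1 at an unadjusted p under 0.05 at 1, 4 and 8 h, against 2.42%, 11.6% and 4.51% of all genes. Of these, DESeq2 called Fosb at 1 h and Fosb and Inhba at 4 h. In the partner, kinase, substrate and target lists it called Egr3 at 1 h and Dyrk3, Vegfa, Ptgs2, Egr3 and Bdnf at 4 h, and limma-voom called none of these genes.

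Markers of cell types were summed in each library beside these results. The 4 choroid plexus markers, led by Ttr, had a summed normalized CPM of 3920 in the control, 1652 at 1 h, 26.4 and 4174 in libraries 1 and 2 at 4 h, and 3032 at 8 h. Choroid plexus is a ventricular tissue next to the hippocampus, and its markers were thus nearly absent from the library with the highest Rcan1 and Rcan2 levels. In library 2, in which they were as abundant as in the control, Rcan1 was at 1.72 times the control. The part of these markers in the differences between libraries was not tested.

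The 6 neuron markers, led by Map2, summed to 5491 in the control, 5709 at 1 h, 6156 and 5540 in libraries 1 and 2 at 4 h, and 5275 at 8 h. The 4 dentate granule cell markers, led by Calb1 in the control and at 1 h and by Prox1 in the other libraries, summed to 264, 261, 276, 217 and 264 in the same order. Both sums combined markers that differed in opposite directions. Map2 was at 1.43 and 1.21 times the control at 4 h and Rbfox3 at 0.688 and 0.692, and without Map2 the neuron sum was 3762 in the control, 3894 at 1 h, 3691 and 3446 in the pair at 4 h, and 3242 at 8 h. Prox1 was at 2.86 and 1.99 times the control at 4 h, whereas Dsp was at 0.0600 and 0.188 and C1ql2 at 0.376 and 0.398. At 8 h C1ql2 was at 1.98 and Calb1 at 0.594 times the control. Without Prox1 the dentate granule cell sum was 204 in the control, 194 at 1 h, 105 and 97.8 in the pair at 4 h, and 187 at 8 h. The 5 pyramidal cell markers, led by Fibcd1 except in library 1 at 4 h (Wfs1), summed to 325, 306, 241, 292 and 328. At 8 h this sum also combined opposite directions, with Grik4 at 1.76 and Fibcd1 at 0.741 times the control. Without Grik4 the pyramidal cell sum was 279 in the control and 247 at 8 h. The 5 interneuron markers, led by Gad1, summed to 480, 542, 815, 655 and 490.2. The interneuron sum was thus highest in library 1 at 4 h, as was Rcan1, with Gad1 making up 515 of it, whereas Gad2 was highest in library 2 at 4 h and Pvalb at 1 h.

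The 6 astrocyte markers, led by Slc1a3 except at 8 h (Gfap), summed to 1187, 1259, 1797, 1641 and 1531, with Gfap at 2.70 and 2.31 times the control at 4 h and 2.66 times at 8 h. The 5 oligodendrocyte markers, led by Mbp, summed to 2819, 3446, 3249, 4155 and 2567, and the 5 microglia markers, led by Csf1r, to 168, 171, 136, 142 and 152. The astrocyte sum was higher in all kainic acid libraries than in the control. Without Gfap it was 966 in the control, 988 at 1 h, 1202 and 1130 in the pair at 4 h and 944 at 8 h, where Gja1 was at 0.507 and Aqp4 at 0.965 times the control. The 5 endothelial markers, led by Flt1, summed to 90.2, 88.7, 146, 95.6 and 109.9, and the 4 mural cell markers, led by Rgs5, to 156, 154, 146, 157 and 147. The 5 neutrophil and red blood cell markers, led by Hbb-bs, summed to 107, 89.9, 183, 121 and 143. Both of the endothelial and blood sums were highest in library 1 at 4 h, as were Flt1, Cdh5, Hbb-bs and Hba-a1, whereas Cldn5 and Pecam1 were highest at 8 h, Ly6c1 in library 2 at 4 h and S100a9 at 1 h. The 5 T cell markers, Cd4 among them, had 3, 5, 3, 3 and 5 counts in all, and Cd3d was at 0 in every library. The neutrophil gene Ly6g had at most 1 count in any library. The part of the marker lists in the levels of the RCAN, calcineurin and NFAT genes was not tested.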

How the data were processed

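RNA-seq libraries of hippocampal total RNA were prepared by the authors with a stranded kit. The authors deposited counts of reads per gene, as whole numbers without normalization; their processing notes name STAR 2.5.1b, HTSeq and the build GRCm38.p4, but give neither the strand setting nor the annotation release. Lines that name no gene (reads outside genes, ambiguous or not uniquely aligned) were left out and made up 37.8%, 40.6%, 44.1%, 38.5% and 42.7% of reads (control, 1 h, 4 h libraries 1 and 2, 8 h).

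The counts were fitted with edgeR 4.0.16 in R 4.3.3 (filterByExpr, TMM, quasi-likelihood model with 4 groups and 1 residual degree of freedom, prior count 2, Benjamini-Hochberg over 19768 genes, threshold 0.05). The TMM factors were 1.04, 0.992, 0.924, 0.991 and 1.06, and the biological coefficient of variation was 0.238. Library size in place of TMM shifted the median log2 ratio of all genes by -0.18 in library 1 at 4 h and by less than 0.1 in the other libraries. The code was tested on simulated data, in which false calls by edgeR were few with trended and many with gene-wise dispersions. Counts received exact Poisson intervals and ratios exact conditional binomial (Clopper-Pearson) intervals at the 95% level. The floor was 3 counts. Exon lengths came from GENCODE M21 (GRCm38), in which all 10 identifiers were found with the same version, and promoter windows from RefSeq (GRCm38.p6). Python 3.11.15, scipy 1.17.1 and matplotlib 3.10.9 were used for intervals and figures.

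The members and lists were chosen with earlier results of these data known. From each list other than the members, up to 4 genes past 1.5-fold at 1 h, 8 h or in both libraries at 4 h were named, largest first, together with the 5 genes nearest to Rcan1 (pseudocount 0.5). Further genes of these lists and marker lists were named after their values were seen. Alternatives comprised DESeq2 1.42.0, limma-voom (limma 3.58.1), an assumed coefficient of variation of 0.4, other scalings and filters, a smaller prior count, fits without the 1 h and 8 h libraries and leaving out each 4 h library. Sequence of proteins was not used here.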

Additional observations from a re-analysis of the deposited data

Results flagged for a closer look

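For 5 of the 10 genes, every library of a time point lay above the control and every library of another time point below it, which was the case in 8 of 30 pairs of time points. In 2 of these pairs, both of Ppp3ca, all libraries lay outside counting error of the control. The share of all genes tested with such pairs was not counted, so that these counts describe the 10 genes only. Ppp3ca had a ratio of 1.11 at 1 h, 0.854 and 0.934 in the pair at 4 h, and 0.926 at 8 h. The log2 difference was -0.31 (SE 0.17) for 4 h minus 1 h and -0.26 (SE 0.19) for 8 h minus 1 h, with an adjusted p of 0.686 and 0.919 by edgeR's quasi-likelihood test and Benjamini-Hochberg adjustment, so that neither difference passed the threshold.

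In the other pairs at least 1 library lay within counting error of the control. Ppp3cb had a ratio of 1.03 at 1 h, 0.942 and 0.943 in the 4 h libraries, and 0.897 at 8 h. Nfatc1 was at 0.931 at 1 h and 1.03 at 8 h, and Nfatc2 at 1.01 and 0.816. Nfatc4 was at 0.589 at 1 h, 0.898 and 0.968 in libraries 1 and 2 at 4 h, and 1.18 at 8 h. The adjusted p of these differences between time points lay between 0.869 (Ppp3cb, 4 h minus 1 h) and 0.994 (Nfatc1, 8 h minus 1 h) by edgeR's quasi-likelihood test and Benjamini-Hochberg adjustment. With library size alone the 1 h ratios of Ppp3cb and Nfatc2 were 0.975 and 0.961, on the same side of the control as at 8 h.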

How the results depend on the processing

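No paired analysis was run because the sample labels give no pairing between groups. Of 30 log2 fold changes of the 10 genes, 5 changed sign in a setting with a test, all of them with library size alone: at 1 h Ppp3cb (-0.036), Ppp3r1 (-0.00051), Nfatc2 (-0.057) and Nfatc3 (-0.032), and at 4 h Nfatc2 (-0.048). Without a 4 h library (no test possible), the sign at 4 h also changed for Ppp3r1, Nfatc1, Nfatc2 and Nfatc3. Rcan1 kept its sign in every setting tried, with log2 fold changes of 0.85 to 0.93 at 1 h, 0.78 to 1.57 at 4 h (both ends from leaving out a 4 h library) and 0.33 to 0.37 at 8 h. It passed the threshold only without a filter on low counts, with log2 fold changes of 0.92 at 1 h and 1.21 at 4 h, where 1 of the 10 genes was called at each of these times; the cause was not tested. Over all genes, calls at 1, 4 and 8 h numbered 57, 237 and 22 with library size alone, 49, 233 and 32 with DESeq2, 40, 81 and 12 with an assumed coefficient of variation of 0.4, and 285, 1300 and 279 without a filter. With at least 10 counts in every library there were 1 and 0 calls at 1 and 4 h, with limma-voom and with median-of-ratios factors 0 at 4 h, and with the control and 4 h libraries alone 4. At 2-fold in place of 1.5-fold, 1070, 980 and 1342 genes were higher and 751, 299 and 666 lower at 1, 4 and 8 h, with 0 of the 10 genes higher at 1 h, 0 lower at 1 h and 0 higher at 4 h. Chosen after seeing the data, the 1.5-fold counts at 4 h were repeated in each library alone, which gave 2733 to 4169 genes higher and 2112 to 3312 lower, and 1 to 3 of the 10 genes higher (Rcan1 in both, with Rcan2 and Nfatc1 in library 1, the latter 2 at 1.36 and 1.33 and thus not past 1.5-fold with library size alone). The cause of these changes was not tested. A smaller prior count changed no sign. Also chosen after seeing the data, the 1.5-fold counts with library size alone gave 1862 genes higher and 2129 lower at 1 h, 1651 and 1792 at 4 h and 2845 and 1703 at 8 h, so that lower genes outnumbered higher ones at 1 and 4 h, unlike with TMM factors (2147 and 1818, 2000 and 1241, 2779 and 1767). With median-of-ratios factors they were 2143 and 1821, 2010 and 1225, and 2785 and 1756. The same genes of the 10 passed with both, counted at 4 h in both libraries. In the other pathway lists, library size alone left out Ppp3r2 at 1 h and Fkbp1a and Dyrk1a at 4 h. Without genes at 0 counts in the control, 2112, 1959 and 2742 genes were higher at 1, 4 and 8 h, and of the lists only Tnf was left out, the median log2 fold change of the targets at 4 h being 2.10 in place of 2.24. With 1 library in 3 of the 4 groups, differences at 1 h and 8 h have no replicate check, and the low counts of Nfatc1, Nfatc2 and Nfatc4 limit what could be detected.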
